A study of Rattus norvegicus with 10 samples.

Results

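Retinoic acid synthesis and binding genes were examined in mammary gland RNA from 5 rats of the ACI strain and 5 of the Brown Norway strain, called BN here. The 9 genes *Aldh1a1*, *Aldh1a2*, *Aldh1a3*, *Rbp4*, *Crabp1*, *Crabp2*, *Stra6*, *Cyp26b1* and *Rarb* were taken by symbol, as every probe set annotated to 1 of them alone, which gave 14 of 31042 probe sets and 9 of 14217 genes. The list of genes was drawn up with the difference between the strains already known, so the ACI and BN levels of these 9 genes are a description: no p is given for them, and calls among them are counted only to stand beside the share of all probe sets called. All females received 17β-estradiol (E2) for 12 weeks from a subcutaneous implant placed at 9 weeks of age, and both strains were inbred animals without a transgene. The ACI rats were of the ACI/SegHsd strain and were 21 weeks old when the glands were taken. Each rat gave 1 Affymetrix array of total RNA, and no untreated rat is among the arrays, so each difference is one between strains under E2.

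The deposited values are log2 levels from GCRMA, a method that models background from the sequence of each probe and puts all arrays on a common scale. The arrays had medians of 3.35 to 3.53, and 30.6% to 33.3% of the probe sets of an array lay at the lowest value, 2.23. Where every rat of a strain was under a log2 value of 4, the probe set is called near background there, and the fold given is the other strain's mean over 4, written as "at least". Within a strain, the letter that opens the animal ID in the labels was S in 3 rats (rats 1 to 3) and H in 2 rats (rats 4 and 5), and what these letters stand for was not found in the labels or methods. Whether a letter means the same in both strains is not given either. Correlations between arrays ran from 0.981 to 0.995 within ACI and from 0.957 to 0.992 within BN. The extraction note of the BN samples names ACI rats, while their titles and strain field name BN. The strains were deposited under separate runs of sample numbers, and a difference between deposits cannot be told apart from one between strains. Differences are given as ACI minus BN on the log2 scale, so that values below 0 mean more RNA in BN, with the standard error (SE) from limma, a linear model fitted to all probe sets.

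Retinoic acid is the active form of vitamin A. Retinol travels in blood bound to the carrier RBP4 and enters cells through its receptor STRA6. Retinol dehydrogenases such as RDH10 oxidize it to retinal, and the ALDH1A enzymes oxidize retinal to retinoic acid. CRABP1 and CRABP2 bind retinoic acid inside the cell, enzymes of the CYP26 family break it down, and the receptors RARA, RARB and RARG carry it to response elements in DNA as partners of RXR proteins. *Rarb*, *Cyp26a1*, *Cyp26b1* and *Stra6* are themselves known to be induced by retinoic acid in many cells, and retinoids are known for effects on epithelial differentiation and on immune cells.

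The promoter windows of the 4 members that lay more than 1 below BN in ACI rats on the log2 scale are shown to give the sequence around a start site of each. Each holds 250 bases before and 50 bases from the start site onward, 5′ to 3′ on the strand of the gene, from RefSeq on build GRCr8, which was assembled from a BN rat; ACI sequence was not analysed here. Capitals mark the half-sites of retinoic acid receptors, searched on both strands as the consensus AGGTCA, the variant AGTTCA, the variant GGGTCA and the variant GGTTCA. The windows are chr1:129427594-129427893 on the minus strand for *Aldh1a3*, chr4:118616127-118616426 on the minus strand for *Cyp26b1*, chr8:67444507-67444806 on the plus strand for *Stra6* and chr15:11336142-11336441 on the plus strand for *Rarb*. The windows of *Aldh1a3* and *Rarb*, and that of *Aldh1a1* described below, lie inside the span of the gene. The outer 5′ ends of these spans were not searched.
Aldh1a3: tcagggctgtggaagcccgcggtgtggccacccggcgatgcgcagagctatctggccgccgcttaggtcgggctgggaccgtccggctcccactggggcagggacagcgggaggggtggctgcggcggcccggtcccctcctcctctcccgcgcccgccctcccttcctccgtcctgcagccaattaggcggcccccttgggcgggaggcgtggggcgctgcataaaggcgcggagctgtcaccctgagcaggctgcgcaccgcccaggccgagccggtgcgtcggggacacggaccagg
Cyp26b1: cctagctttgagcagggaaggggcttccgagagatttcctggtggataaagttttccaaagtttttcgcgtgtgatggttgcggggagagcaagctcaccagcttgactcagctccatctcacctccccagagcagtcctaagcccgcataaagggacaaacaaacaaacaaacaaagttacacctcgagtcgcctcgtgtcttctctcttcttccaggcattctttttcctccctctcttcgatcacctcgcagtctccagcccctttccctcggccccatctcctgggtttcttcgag
Stra6: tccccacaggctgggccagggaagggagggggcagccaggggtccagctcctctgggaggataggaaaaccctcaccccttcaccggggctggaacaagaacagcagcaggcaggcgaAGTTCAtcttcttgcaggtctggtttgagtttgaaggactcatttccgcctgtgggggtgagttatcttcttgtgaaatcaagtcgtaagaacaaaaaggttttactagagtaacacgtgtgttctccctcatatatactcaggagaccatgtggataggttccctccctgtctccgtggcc
Rarb: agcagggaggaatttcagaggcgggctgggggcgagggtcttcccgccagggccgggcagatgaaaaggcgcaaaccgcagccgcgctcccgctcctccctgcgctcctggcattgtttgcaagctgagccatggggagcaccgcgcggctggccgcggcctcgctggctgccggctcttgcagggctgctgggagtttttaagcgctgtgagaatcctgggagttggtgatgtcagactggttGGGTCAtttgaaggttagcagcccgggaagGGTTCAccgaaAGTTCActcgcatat

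The *Rarb* window held a pair of half-sites in the same direction with 5 bases between them, an arrangement called DR5 and known as the response element of this gene. The match was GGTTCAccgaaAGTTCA, at bases 25 to 41 counted from the start site, chr15:11336416-11336432. A DR5 match of these half-sites was found in 128 of 33469 promoter windows of the same length (0.382%), and single half-sites, 4 sequences of 6 letters that also make up each DR5 match, were found in 44.4%. No other member window held a DR5 match. *Stra6* had a single half-site at positions -132 to -127 from its start site, *Aldh1a1* had 1 as well, and the windows of *Aldh1a3*, *Cyp26b1*, *Aldh1a2*, *Rbp4*, *Crabp1* and *Crabp2* had none. Among the other pathway genes described below, *Cyp26a1* had a DR5 match, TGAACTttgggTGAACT read on the strand of the gene, at positions -92 to -76 from its start site, chr1:244883730-244883746. A match describes these letters only. The GC content of the 9 member windows ran from 48.3% to 76.0%, and the median of all windows was 51.7%.

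Of the 9 genes, *Aldh1a3*, *Cyp26b1*, *Stra6* and *Crabp1* were higher in every BN rat than in any ACI rat, and *Rarb* was above the ACI range in 4 of 5 BN rats. *Rbp4* and *Crabp2* overlapped between the strains, and *Aldh1a1* and *Aldh1a2* were near background in both. Each gene is represented by its brightest probe set (highest mean over the 10 rats), and on these 7 genes had the lower mean in ACI rats and 2 the higher, with a median difference of -0.86, against 0.00 over all genes. In limma, 5 of the 14 probe sets passed an adjusted p under 0.05, all toward BN and none toward ACI, where 12.7% of all probe sets passed in either direction, 5.87% toward BN and 6.79% toward ACI. The strains did not overlap in 5 of the 14 probe sets and in 12.3% of all probe sets. Since the members were chosen on this contrast, nothing is read from these counts. Of the 14 probe sets, 9 were above 4 in at least 1 rat and 5 were under 4 in all 10 rats.

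**Figure D1:**
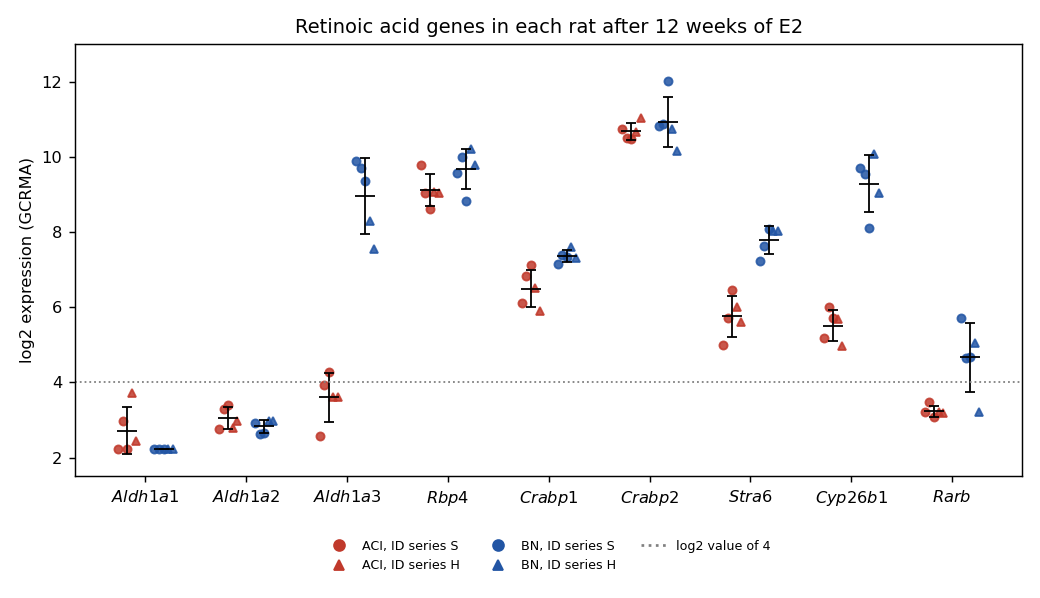
Log2 expression (y axis) of the 9 genes (x axis) in each ACI rat (red) and BN rat (blue) after 12 weeks of E2, by the representative probe set; circles are rats of ID series S, triangles are rats of series H, bars show mean ± SD (n = 5) and the dotted line marks the value of 4. All BN rats lie above all ACI rats in *Aldh1a3*, *Crabp1*, *Stra6* and *Cyp26b1*, and BN rat 5 alone lies within the ACI range in *Rarb*.

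*Aldh1a3* encodes a retinaldehyde dehydrogenase that makes retinoic acid, and it had the largest strain difference of the 9 genes. Its log2 levels in BN rats 1 to 5 were 9.89, 9.69, 9.36, 8.30 and 7.54. In ACI rats 1 to 5 they were 2.57, 3.93, 4.29, 3.60 and 3.61, so that only ACI rat 3 was above 4. The BN rats of ID series S were all above those of series H, and the lowest BN rat was 3.25 above the highest ACI rat. The means were 8.96 ± 1.0 in BN and 3.60 ± 0.64 in ACI (SD, n = 5), a difference of -5.36 (SE 0.52). With the 4 ACI values under 4 set to 4, the level was at least 29.8-fold higher in BN. Rats of ID series S alone gave -6.05, and those of series H alone gave -4.32. *Aldh1a3* lies on chromosome 1 of GRCr8, at 129392516 to 129436552, and is measured by a single probe set.

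The other genes of this enzyme family gave no such pattern. *Aldh1a1*, which encodes the enzyme best known from liver and stem cells, was at 2.23 in all 5 BN rats and at 2.23 to 3.71 in ACI rats, with ACI rat 4 highest. *Aldh1a2*, which encodes the main enzyme of retinoic acid synthesis in the embryo, was at 2.63 to 2.97 in BN rats and at 2.77 to 3.40 in ACI rats. Both genes were near background in all 10 rats, and no fold is given.

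*Cyp26b1* encodes a cytochrome P450 that breaks down retinoic acid. In BN rats 1 to 5 its levels were 9.70, 9.53, 8.10, 10.07 and 9.03, and in ACI rats 1 to 5 they were 5.18, 6.0, 5.72, 5.69 and 4.97. The strains were 2.10 apart at their nearest rats, BN rat 3 and ACI rat 2. The means were 9.29 ± 0.76 in BN and 5.51 ± 0.42 in ACI (SD, n = 5), a difference of -3.77 (SE 0.38) and a 13.7-fold higher level in BN. The second probe set of *Cyp26b1*, 1376667_at, was at 2.23 in every rat except BN rat 1, at 2.48, and so gave no measurement of the gene in either strain. The representative probe set gave -3.48 in rats of ID series S alone and -4.22 in those of series H, and the mean over both probe sets gave -1.91.

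*Stra6*, which encodes the receptor that takes up retinol from RBP4, is measured by 5 probe sets. On the representative one, 1385475_a_at, BN rats 1 to 5 were at 7.22, 7.62, 8.08, 8.04 and 8.02, and ACI rats 1 to 5 were at 5.0, 5.72, 6.46, 6.01 and 5.60. The lowest BN rat was 0.76 above the highest ACI rat. The means were 7.80 ± 0.37 in BN and 5.76 ± 0.54 in ACI (SD, n = 5), a difference of -2.04 (SE 0.29) and a 4.11-fold higher level in BN. A second probe set, 1390525_a_at, gave 7.75 ± 0.34 and 5.60 ± 0.77 (SD, n = 5), a difference of -2.16 (SE 0.37), also without overlap. In both, BN rat 1 was the lowest BN rat and ACI rat 1 the lowest ACI rat. The remaining 3 probe sets were near background in ACI rats. On 1376962_at, which carries the same source accession as 1390525_a_at in the annotation, only BN rats 1 and 3 were above 4, at 4.80 and 5.87. On 1385476_x_at and 1381606_at all rats were under 4, and BN rat 5 was highest on both, at 3.72 and 3.25. Averaged over the 5 probe sets the difference was -1.05.

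**Figure D2:**
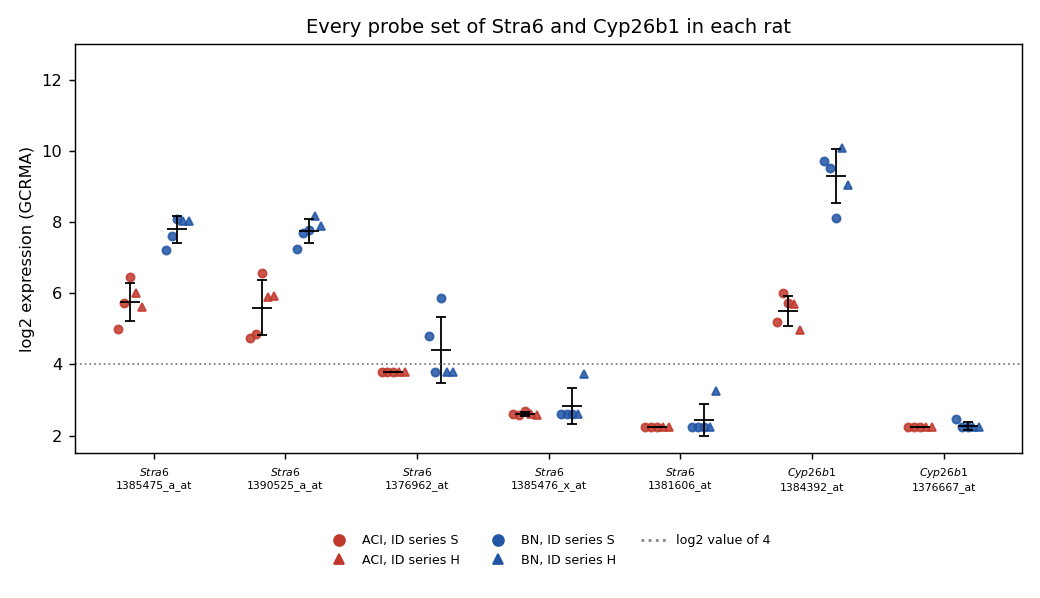
Log2 expression (y axis) on each probe set of *Stra6* and *Cyp26b1* (x axis, with probe set names) in each ACI rat (red) and BN rat (blue); circles are ID series S, triangles are series H, bars show mean ± SD (n = 5) and the dotted line marks the value of 4. *Stra6* separates the strains on 1385475_a_at and 1390525_a_at, and *Cyp26b1* on 1384392_at, while ACI rats lie below 4 on the other probe sets of both genes.

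*Rbp4*, which encodes the retinol carrier and is expressed in liver and fat, overlapped between the strains. BN rats 1 to 5 were at 9.56, 9.99, 8.83, 10.22 and 9.79, and ACI rats 1 to 5 were at 9.78, 9.04, 8.60, 9.06 and 9.05. The means were 9.68 ± 0.53 in BN and 9.11 ± 0.42 in ACI (SD, n = 5), a difference of -0.57 (SE 0.30). The rats with the highest *Rbp4* in each strain, BN rat 4 and ACI rat 1, also had the highest mean level of a list of 11 adipocyte genes, 10.43 and 9.82, and the rat with the lowest *Rbp4* in each strain, rat 3, had the lowest, 9.35 in BN and 8.59 in ACI. This list mean was 9.35 to 10.43 in BN rats and 8.59 to 9.82 in ACI rats, with 3 of the 11 genes called toward BN, none toward ACI, and *Lep* near background in both strains. The part of adipocytes in the *Rbp4* level was not tested. In RNA of a whole gland, fewer cells of a type and less RNA per cell cannot be told apart.

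*Crabp1* and *Crabp2* encode the cellular retinoic acid binding proteins, of which CRABP2 is known to deliver retinoic acid to its nuclear receptors. *Crabp1* was at 7.14, 7.40, 7.34, 7.59 and 7.32 in BN rats 1 to 5 and at 6.12, 6.84, 7.11, 6.52 and 5.89 in ACI rats 1 to 5. The strains did not overlap, but the nearest rats, BN rat 1 and ACI rat 3, were 0.03 apart. The means were 7.36 ± 0.16 in BN and 6.50 ± 0.50 in ACI (SD, n = 5), a difference of -0.86 (SE 0.23) and a 1.82-fold higher level in BN. Rats of ID series S alone gave -0.60 and those of series H alone -1.25. *Crabp2* was at 10.83, 10.88, 12.02, 10.74 and 10.16 in BN rats 1 to 5 and at 10.73, 10.50, 10.47, 10.66 and 11.02 in ACI rats 1 to 5. BN rats were both the highest and the lowest of all 10, and the difference of -0.25 (SE 0.31) was 0.02 without BN rat 3. It was -0.68 in series S alone and 0.39 in series H alone. BN rat 3 also had the highest mean level of a list of 11 fibroblast and stroma genes, 10.05, against 8.64 to 9.55 in the other BN rats and 8.26 to 8.81 in ACI rats. Of that list, 2 genes were called toward BN and 1 toward ACI, and *Fap* and *Fbln1* were near background in ACI rats. The part of stroma in the *Crabp2* level was not tested.

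*Rarb* encodes retinoic acid receptor beta. It was at 5.72, 4.64, 4.68, 5.06 and 3.22 in BN rats 1 to 5 and at 3.21, 3.47, 3.08, 3.22 and 3.20 in ACI rats 1 to 5. All ACI rats were near background, and BN rat 5 was at the level of ACI rat 4. The means were 4.66 ± 0.92 in BN and 3.24 ± 0.14 in ACI (SD, n = 5), a difference of -1.43 (SE 0.40) and a level at least 1.58-fold higher in BN. Without BN rat 5 the difference was -1.79.

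The level of a member may differ between the ID series, a contrast that the choice of the genes did not use. Rats of series H were compared with those of series S within each strain by limma, with 1 mean for each strain and series, and p-values were adjusted over all probe sets. Within BN, none of the 14 member probe sets passed, where 8.51% of all probe sets did, and 1 had an unadjusted p under 0.05. That was *Aldh1a3*, with a difference of -1.73 between series H and S (SE 0.52, adjusted p = 0.105). It passed when probe sets with a mean under 4 were left out (adjusted p = 0.0239) and when values under 4 were set to 4 (adjusted p = 0.0169). The difference stayed at -1.73 in both, while the SE was 0.45 and 0.25. *Aldh1a3* reached a mean of 4 only through BN. The floor removed spread among the 4 ACI rats under 4, and the SE is shared by both strains. Nothing is read from these passes. The next largest differences within BN on the representative probe sets were those of *Rarb*, -0.87 (SE 0.57, adjusted p = 0.447), and *Crabp2*, -0.79 (SE 0.39, adjusted p = 0.311). Within ACI, none passed, against 0.0838% of all probe sets, and none had an unadjusted p under 0.05; *Aldh1a3* had a difference of 0.01 (SE 0.52, adjusted p = 1). The difference between the strains in the effect of the series passed in none of the 14, against 2.76% of all probe sets, and none had an unadjusted p under 0.05. For *Aldh1a3* it was -1.74 (SE 0.74, adjusted p = 0.292), but 4 of its 5 ACI values were under 4, where a series difference could hardly be seen. The comparison of this effect between strains takes each letter to mean the same in both, which the labels do not show.

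The other genes of the pathway were taken from 5 lists that hold none of the 9 members. They were tested between ACI and BN rats by limma with adjustment over all probe sets. These lists were also drawn up with earlier results of these data known, so their counts are a description and no independent test. Of 85 genes listed, 63 were measured and 39 were above 4 in at least 1 rat. Of the 63, 7 were called toward BN (11.1%) and 2 toward ACI (3.17%), against 9.12% and 8.29% of all genes, and 54 did not pass. The median difference was 0.00, as over all genes.

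Of 16 measured genes on the list named retinol oxidation, which also holds reductases of retinal, 1 was called toward BN and 2 toward ACI. *Rdh10*, which encodes the main retinol dehydrogenase of retinoic acid synthesis, was at 6.56 to 7.50 in BN rats and at 5.15 to 5.72 in ACI rats. The difference was -1.65 (SE 0.20, adjusted p = 0.00127), a 3.14-fold higher level in BN, and its second probe set was at the lowest value in all rats. *Adh1c*, a class I alcohol dehydrogenase gene, was at 4.65 to 6.75 in ACI rats and at 3.22 to 4.36 in BN rats, where BN rat 5 alone was above 4. It was called toward ACI with 2.51 (SE 0.41, adjusted p = 0.00517), and its second probe set was at background. *Dhrs4*, which encodes a reductase that can act on retinal, was at 8.43 to 8.98 in ACI rats and at 6.66 to 7.95 in BN rats, a difference of 1.39 (SE 0.26, adjusted p = 0.0089). *Dhrs3*, which encodes a retinal reductase known to be induced by retinoic acid, had 0.00 (SE 0.19, adjusted p = 1), and *Adh7* was at the lowest value in all rats. *Rdh10* and *Aldh1a3*, whose products act one after the other on retinol and retinal, had their higher level in BN rats, while *Adh1c* and *Dhrs4* had theirs in ACI rats. *Aldh1a3* was chosen on this contrast, and whether these genes are expressed in the same cells was not tested.

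Of 4 measured genes of other retinal oxidation and retinoic acid clearance, 2 were called toward BN. *Cyp1b1*, a cytochrome P450 gene whose product also acts on estrogens, was near background in ACI rats, at 2.28 to 2.39, and at 6.29, 6.47, 4.63, 4.98 and 3.55 in BN rats 1 to 5. The difference was -2.85 (SE 0.53, adjusted p = 0.00949), and the level was at least 2.27-fold higher in BN. *Cyp2s1* had -1.11 (SE 0.25, adjusted p = 0.0231), with BN rat 4 alone above 4, at 4.55; its call was lost when any single ACI rat was left out, and when BN rat 1 was. With values under 4 set to 4, neither was called (adjusted p = 0.149 for *Cyp1b1* and 0.844 for *Cyp2s1*; over all settings the adjusted p ran from 0.000256 to 0.443 and from 0.00104 to 0.844). *Cyp26a1*, the family member of *Cyp26b1* with the DR5 match, was at the lowest value in all 10 rats.

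None of 12 genes of retinol transport and storage and none of 15 genes of retinoid receptors and cofactors was called. Among them, *Lrat*, which encodes the enzyme that esterifies retinol, had 0.15 (SE 0.10, adjusted p = 0.429), and *Fabp5*, which encodes a fatty acid binding protein that also binds retinoic acid, had 0.44 (SE 0.23, adjusted p = 0.292). *Ttr*, whose product carries RBP4 in blood, was near background in all rats. For the receptor genes *Rara* and *Rarg* the differences were 0.17 (SE 0.32, adjusted p = 0.857) and 0.46 (SE 0.35, adjusted p = 0.539), and both were above 0 in series S alone, at 0.79 and 1.02, and below 0 in series H alone, at -0.76 and -0.40. *Rxrb* had -0.05 (SE 0.05, adjusted p = 0.609), while *Rxra* and *Rxrg* were near background in all rats on these probe sets. *Nr2f2*, on the receptor and cofactor list, fell just short, with -1.22 (SE 0.34, adjusted p = 0.0501). The strains did not overlap in *Nr2f2*, at 9.84 to 11.18 in BN rats and 8.39 to 9.56 in ACI rats. *Ppard*, on the same list, was also without overlap but higher in ACI rats, with 0.39 (SE 0.15, adjusted p = 0.16).

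Of 16 measured genes known to be inducible by retinoic acid, 4 were called toward BN (25.0%) and none toward ACI, against 9.12% and 8.29% of all genes. Their median difference was -0.40. Since this list was drawn up with earlier results known, nothing is read from its share. *Dhrs3* and *Cyp26a1*, also known to be induced by retinoic acid, were counted in the lists above and were not called. *Rarres1*, a retinoic acid receptor responder gene that encodes a membrane protein, was at 9.21, 8.54, 8.37, 8.82 and 7.99 in BN rats 1 to 5 and at 6.76 to 7.10 in ACI rats, a difference of -1.75 (SE 0.21, adjusted p = 0.00125). *Rarres2*, which encodes the adipokine chemerin, was at 10.41 to 11.01 in BN rats and at 7.93 to 9.25 in ACI rats, a difference of -1.97 (SE 0.26, adjusted p = 0.002) and a 3.91-fold higher level in BN. Both genes were without overlap between the strains, and both were called in all 10 fits that left out 1 rat. *Meis1* and *Meis2* encode homeobox transcription factors. *Meis2* had -1.68 (SE 0.34, adjusted p = 0.0148) with no overlap, but did not pass in rats of series S alone (adjusted p = 0.0576; over all settings from 0.000659 to 0.321), and *Meis1* had -1.68 (SE 0.44, adjusted p = 0.0401), with BN rat 5 at 5.33 within the ACI range of 4.47 to 5.56. When single rats were left out, *Meis1* was called in 1 of 10 fits, the one lacking BN rat 5. The other 12 genes did not pass, among them *Tgm2*, a transglutaminase gene, with -0.67 (SE 0.20, adjusted p = 0.0607), and *Bhlhe40*, a transcription factor gene, with 1.74 (SE 0.60, adjusted p = 0.108).

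**Figure D3:**
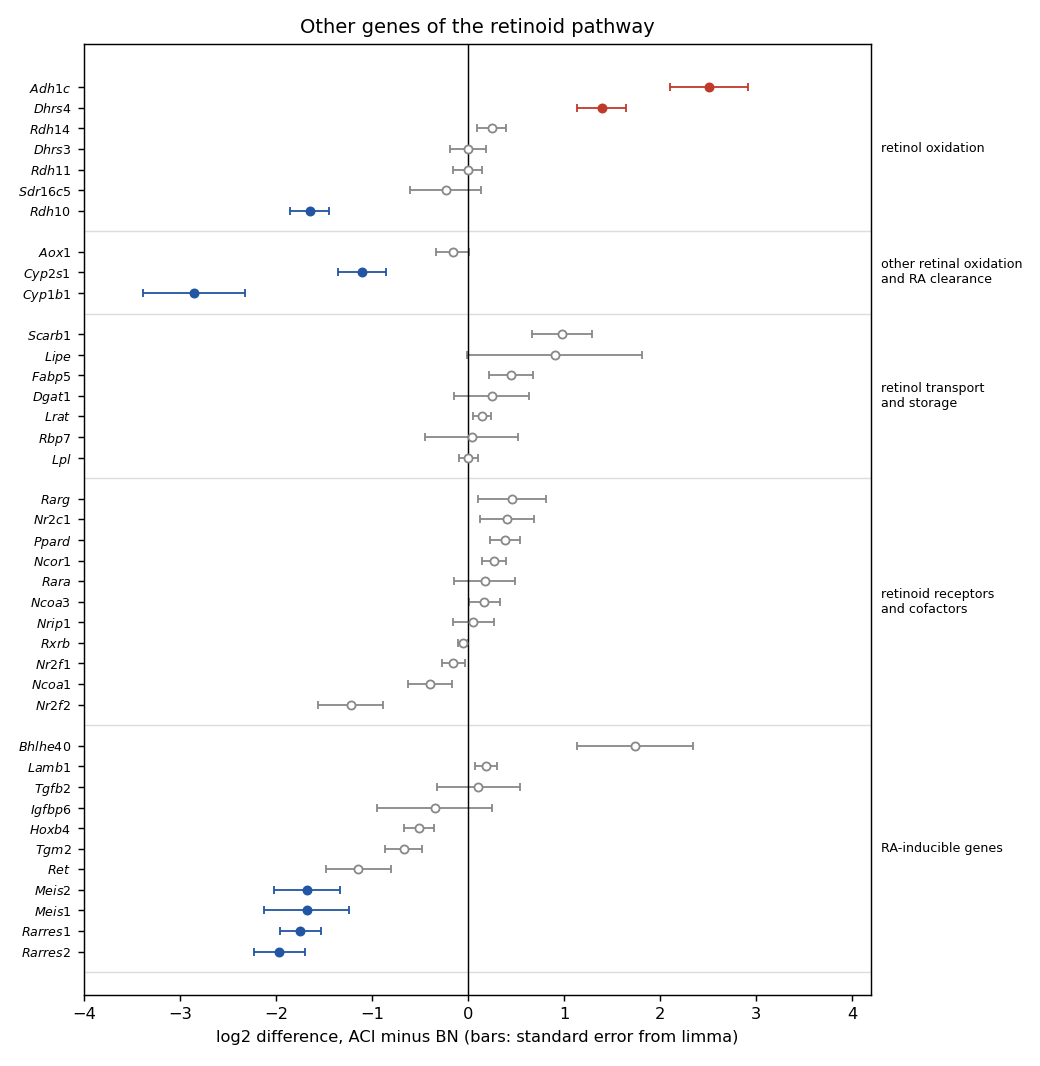
Log2 difference, ACI minus BN (x axis), with its standard error from limma, of the 39 pathway genes outside the 9 members that were above 4 in at least 1 rat (y axis, by list); filled points passed an adjusted p under 0.05 (red toward ACI, blue toward BN) and open points did not. Among the filled points, *Adh1c* and *Dhrs4* lie to the right of 0 and *Rdh10*, *Cyp1b1*, *Cyp2s1*, *Meis1*, *Meis2*, *Rarres1* and *Rarres2* to the left.

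Markers of several cell types moved with strain and so with *Aldh1a3*, *Cyp26b1*, *Stra6*, *Crabp1* and *Rarb*. The mean level of 7 B and plasma cell genes was 4.65 to 8.54 in BN rats and 3.04 to 3.18 in ACI rats, with 6 called toward BN, the same number near background in ACI rats, among them the defining gene *Ms4a1*, and none called toward ACI. BN rat 3 had the low value of 4.65, against 7.66 to 8.54 in the other BN rats, its *Aldh1a3* level of 9.36 lay between those of the other BN rats, and its *Cyp26b1* level of 8.10 was the lowest in BN, where the others were at 9.03 to 10.07. Without this rat the *Cyp26b1* difference was -4.07. BN rat 3 was also the lowest BN rat on the T cell genes, at 5.11 against 6.93 to 7.64 in the others. On the fibroblast and stroma list it was the highest of all rats, at 10.05. On 11 T cell genes the means were 5.11 to 7.64 in BN rats and 4.49 to 5.0 in ACI rats, with 7 called toward BN, *Cd8b* near background in both strains and *Cd4* near background in BN rats, and on 13 genes of macrophages and dendritic cells they were 8.18 to 8.71 and 6.94 to 7.14, with 8 called toward BN, 1 toward ACI, and *Flt3* and *Itgam* near background in ACI rats. On 8 endothelial genes they were 7.61 to 8.04 in BN rats and 5.96 to 7.0 in ACI rats, with 6 called toward BN. On 14 genes of luminal epithelium they were 7.84 to 8.48 in BN rats and 8.61 to 8.99 in ACI rats, with 5 called toward ACI, none toward BN, and *Esr1* and *Foxa1* near background in both strains. On 10 basal and myoepithelial genes they were 8.10 to 8.61 and 8.60 to 9.01, with 3 called toward ACI and *Oxtr* near background in BN rats. The part of these cell types in the levels of the retinoic acid genes was not tested. Genes of skeletal muscle, at 3.81 to 9.97 in BN rats and 6.91 to 10.85 in ACI rats, had none called. On 10 genes of skin and hair follicle the means were 2.55 to 2.68 in BN rats and 3.15 to 3.39 in ACI rats, without overlap, with 2 called toward ACI, none toward BN, and 8 near background in both strains.

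**Figure D4:**
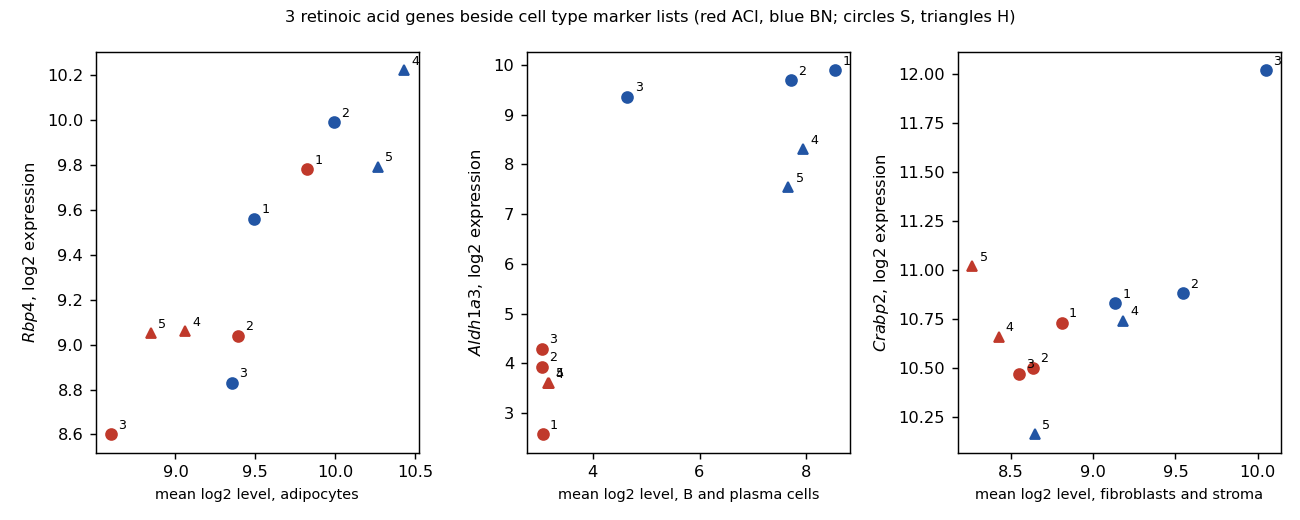
Log2 expression (y axis) of *Rbp4*, *Aldh1a3* and *Crabp2* in each rat beside the mean log2 level of a marker list (x axis: adipocytes, B and plasma cells, fibroblasts and stroma), with the rat number at each point; red is ACI, blue is BN, circles are ID series S and triangles are series H. BN rat 3 combines a low B and plasma cell level of 4.65 with *Aldh1a3* at 9.36, and at 10.05 on the stroma list with *Crabp2* at 12.02; these pairs of gene and list were picked with their values in view.

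The genes outside the 9 members with the level pattern most like *Aldh1a3* were sought among 9356 genes with a mean of at least 4, by the root mean square difference over the 10 rats after each gene was centred on its own mean. The 5 nearest were *Calcb*, which encodes a calcitonin gene-related peptide, at 0.52, *Anxa8*, which encodes an annexin, at 0.60, *Wfdc18*, of the whey acidic protein family, at 0.76, *Cmahp* at 0.82 and *Pla2g2a*, which encodes a secreted phospholipase A2, at 0.86. The search fixed their direction. *Calcb*, with means of 7.46 in BN and 2.69 in ACI rats, and *Wfdc18*, with 7.01 and 2.25, reached a mean of 4 only through BN. The same held for *Cmahp*, with 6.99 in BN and 2.77 in ACI rats, and *Pla2g2a*, with 8.11 and 3.17. *Anxa8* had means above 4 in both strains, 9.39 in BN and 4.78 in ACI rats. For *Aldh1a1*, the member with the largest difference toward ACI, *Tuba4a* was nearest, at 0.29. It was followed by *Jph2*, *Msto1*, *Slc30a7* and *Ccdc85c*, the last at 0.31, but *Aldh1a1* itself was near background in all rats.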

How the data were processed

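Mammary gland RNA of single rats was measured on Affymetrix rat expression arrays. Following the submitters' processing notes, the authors made the deposited log2 values, 1 per probe set, with GCRMA 2.18.1; the set of arrays normalized in 1 run is not stated there. Of 31099 probe sets, 57 controls were dropped. Names came from the annotation of the array, updated through RefSeq gene IDs (20758 of 20826 probe sets with 1 symbol), and 436 probe sets with several symbols and 9780 without one entered no list. Groups came from the sample titles. Strains were compared in limma 3.58.1 (R 4.3.3), strain being the sole covariate, with Benjamini-Hochberg adjustment over 31042 probe sets; the code was tested on simulated data. A strain difference in the sequence a probe binds cannot be told apart from one in level, probe sets ending in _a_at or _x_at can bind several transcripts, and precision is limited by the number of arrays.

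The members, lists and settings were chosen with earlier results of these data known. Named genes were all member probe sets, every called pathway gene, further pathway genes listed by name, and the 5 genes nearest in pattern to each of *Aldh1a3* and *Aldh1a1*. *Nr2f2*, *Ppard*, *Tgm2* and *Bhlhe40* were chosen after their values were seen. Alternatives were a block for replicate number or ID series, either series alone, a filter to means of 4 or more, a floor at 4, quantile normalization, centring, Student's test, a trended and robust variance, array weights, the mean over a gene's probe sets, and leaving out BN rats 4 and 5 or each rat in turn.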

Additional observations from a re-analysis of the deposited data

Results flagged for a closer look

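Within a strain, 1 rat stood apart from the other 4 by a gap of more than 0.71 of the range of the 5 rats in 7 of 46 sets examined. Chance gives about 1 in 20 for normally spread values, a rate that does not apply where the other rats lie at the lowest value of the arrays. Near background, these were ACI rat 3 (2.69, others 2.58 to 2.60) and BN rat 5 (3.72, others 2.60 to 2.62) on *Stra6* 1385476_x_at, BN rat 5 on *Stra6* 1381606_at (3.25, others 2.23) and BN rat 1 on *Cyp26b1* 1376667_at (2.48, others 2.23). Among the called pathway genes, they were BN rat 5 in *Adh1c* (4.36, others 3.22 to 3.33), ACI rat 2 in *Rarres1* (7.10, others 6.76 to 6.80) and ACI rat 4 in *Meis2* (4.42, others 4.59 to 4.61). In *Rarres1* and *Meis2* the outlying ACI rat stayed below every BN rat, and in *Adh1c* BN rat 5 stayed below every ACI rat.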

How the results depend on the processing

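The main counts were 5 member probe sets called toward BN and 0 toward ACI, a description since the members were chosen on this contrast, 7 pathway genes toward BN and 2 toward ACI, and 1822 and 2108 of all probe sets. With the replicate number as a block they were 4 members, 4 and 2 pathway genes, and 886 and 1040 of all probe sets; the numbers were not taken to pair rats, since the correlation of same-numbered rats' deviations ran from -0.255 to 0.226 and only 1 of 10 rats correlated best with its own number. Within ID series S there were 3 members called (*Aldh1a3*, *Cyp26b1* and *Rarb*, but neither *Stra6* probe set), 4 pathway genes toward ACI and 2783 probe sets toward BN. Within series H, with 2 rats per strain, there were 0 members, 0 and 0 pathway genes, and 55 and 45 probe sets. Array weights gave 11 and 6 pathway genes and 4678 and 3719 probe sets. Centring on expressed probe sets gave 2807 probe sets toward BN, and leaving out BN rats 4 and 5 gave 3768. Pathway calls toward ACI were 4 after probe sets averaging under 4 were dropped and 5 with the mean over probe sets. For the series contrast within BN, 1 member was called in place of 0 with a mean of at least 4 and with values under 4 set to 4. This was *Aldh1a3*, with an unchanged difference and a smaller SE. The cause of these shifts was not tested, except that series H holds fewer rats. Leaving out 1 rat gave 4 to 5 members, 5 to 8 pathway genes toward BN, 2 to 4 toward ACI (4 without ACI rat 5), and 1176 to 2500 and 1422 to 2118 probe sets, with the 1176 without ACI rat 4 and 1213 without ACI rat 3. *Aldh1a3*, *Cyp26b1* and *Stra6* kept negative differences under every setting, and *Crabp1* was the member lost in the replicate block, the ID series block, quantile normalization, Student's test, the trended and robust variance, array weights, the fit without BN rats 4 and 5, and every fit that left out 1 rat other than ACI rat 3. *Rarb* was also called with centring, array weights, without BN rats 4 and 5 and without BN rat 5. *Rdh10*, *Dhrs4*, *Adh1c*, *Rarres1* and *Rarres2* were called in 21 of 22 settings, all but series H, *Meis2* in 19 and *Meis1* in 9 of 22, and *Cyp1b1* in 18 and *Cyp2s1* in 12 of 21; none changed direction. With the block, *Cyp1b1*, *Cyp2s1*, *Meis1* and *Meis2* had adjusted p = 0.0561, 0.0913, 0.155 and 0.0663.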
